A study of Mus musculus with 2 samples.

Results

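The insulin-like growth factor axis was followed through the 10 genes Igf1, Igf2, Igf1r, Igf2r, Igfbp2, Igfbp3, Igfbp4, Igfbp5, Igfbp6 and Igfbp7 in mouse fetal thymic stromal cells. A probe was taken where its gene name in the scanner files, or the gene of its RefSeq accession, was among these genes. This gave 17 of the 41174 probes on the array and 10 of the 19505 genes that the probes name.

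The study compared cells in reaggregation thymus organ culture (RTOC), in which dispersed stromal cells are placed as a dense drop on a membrane, with the same kind of cells spread on a dish (2D culture). All cells came from the thymus of C57BL/6 fetuses whose lobes had first been depleted of developing lymphocytes by deoxyguanosine (1.35 mM) during organ culture and had then been dispersed with trypsin. The donors were E14.5 fetuses, with 8 days of organ culture, or E15.5 fetuses, with 9 days, and both cultures were harvested after 72 h. On each of the 2 arrays, RNA from RTOC (Cy5) was hybridized together with RNA from 2D culture (Cy3) of the same stage, so there was 1 array per stage. The dyes were not swapped, and dye and culture cannot be told apart. Nor can the stage be told apart from the array or from the days of prior organ culture, and the labels do not say how many fetuses were pooled. The p-values rest on the spread between these 2 arrays, which may be technical, and on the spread shared over all probes.

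Insulin-like growth factors I and II (Igf1, Igf2) are secreted peptides that signal for growth and survival through the type 1 receptor tyrosine kinase (Igf1r). The type 2 receptor (Igf2r) does not signal in this way but takes up Igf2 and carries it to lysosomes. Secreted binding proteins hold the ligands in the tissue and set how much of them reaches the receptor, and in many organs the ligands and binding proteins are made mainly by mesenchyme.

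All 17 probes were 60 bases long, with 35% to 55% G and C. The sequences of 4 of them are shown 5′ to 3′, as the array files give them, to identify what was measured for the ligand that was higher in RTOC and for 3 of the binding proteins that differed between the arrays. No letter is in capitals, since no part of a probe is singled out.
Igf1 probe A_52_P536434: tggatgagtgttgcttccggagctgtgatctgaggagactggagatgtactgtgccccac
Igfbp2 probe A_51_P423308: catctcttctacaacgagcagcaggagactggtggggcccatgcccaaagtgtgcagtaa
Igfbp3 probe A_51_P228472: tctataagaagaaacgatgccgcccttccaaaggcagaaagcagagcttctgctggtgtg
Igfbp4 probe A_51_P398971: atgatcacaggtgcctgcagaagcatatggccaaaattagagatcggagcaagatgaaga

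Values are normalized intensities in arbitrary units (the processed signals after quantile normalization of the 4 channels) and log2 ratios of RTOC over 2D culture. A probe's ratio was tested against 0 with limma over both arrays, adjusted over the 23685 probes tested, and called where the adjusted p was under 0.05. Where a gene had several probes the brightest stood for it. The intensities of different probes cannot be compared with each other. None of the 17 probes was saturated in any channel, 15 were well above background in all 4 channels, and 16 were tested.

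By this test 5 of the 10 genes differed between the cultures. Igf1 was higher in RTOC than in 2D culture, and Igf2, Igf2r, Igfbp6 and Igfbp7 were lower. Cells from before the cultures were not on the arrays, so which culture had changed cannot be told. Over the array, 28.6% of the 16136 genes tested were called, 16.6% higher and 12.0% lower, and 28.8% of the probes (15.2% higher and 13.6% lower). The median log2 ratio was -0.40 over the 10 genes and 0.05 over all genes tested. It was -0.27 with the median centring described below, -0.50 when only E14.5 was used and -0.051 when only E15.5 was used. Probes listed only under older names could stand for genes of the array but not for the 10 genes. For Igf1r, which with Igfbp2 sets the median of -0.40, the brightest such probe gave a mean log2 ratio of 0.56 in place of 0.03. Over the 16 tested probes of the 10 genes the median was 0.61, since the genes with ratios above 0 have more probes, 10 in all against 6. Without the pairing of the cultures on each array, Igf1 kept its call and the other 4 genes lost theirs, and with no filter on dim probes 0 probes of the array were called by limma (10666 at an unadjusted p under 0.05). The split of calls depended on the centring. When the processed signals were centred on the median of all probes instead, the median of the tested probes moved from -0.018 to 0.060 on the E14.5 array and from -0.0012 to 0.24 on the E15.5 array. The calls were then 3 higher (Igf1, Igfbp4 and Igfbp5) and 2 lower (Igfbp6 and Igfbp7), against 5076 higher and 2725 lower probes over the array in place of 3609 and 3211.

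**Figure D1:**
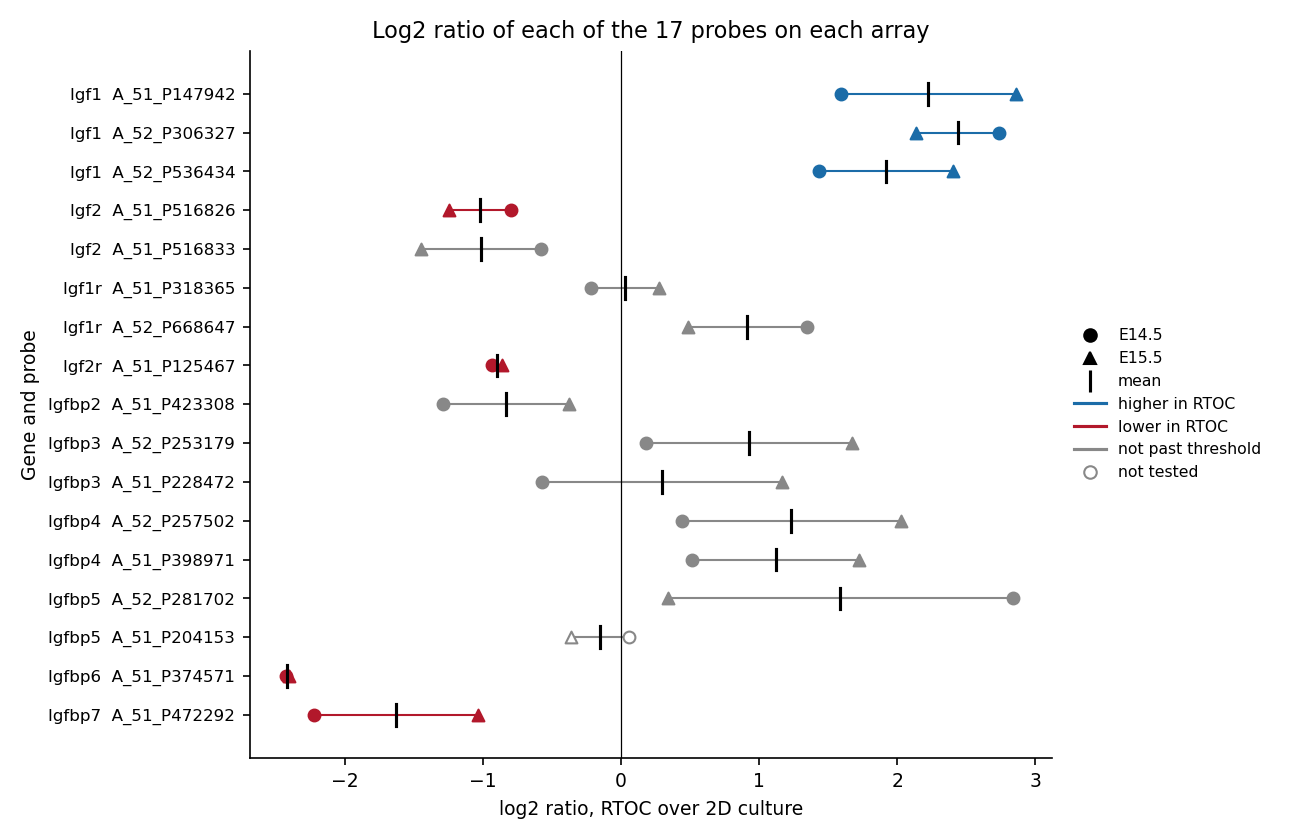
Log2 ratio of RTOC over 2D culture for each of the 17 probes, with a circle for the E14.5 array, a triangle for the E15.5 array and a black bar for the mean; blue probes were higher and red probes lower in RTOC at an adjusted p under 0.05, and open symbols were not tested. The 3 Igf1 probes lie between 1.44 and 2.86, and both arrays of Igfbp6 coincide near -2.4.

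Igf1 was the ligand that was higher in RTOC. Its brightest probe, A_51_P147942, is printed as 10 spots. It read 2340 in 2D culture and 7059 in RTOC at E14.5, and 915 in 2D culture and 6634 in RTOC at E15.5. Both RTOC values were above both 2D values, and the 2D value was the one that differed between the arrays. The log2 ratios were 1.59 and 2.86, with an SD between the 10 spots of 0.05 and 0.06, and their mean of 2.23 ± 0.90 (SD, n = 2 arrays) corresponded to a 4.68-fold higher level in RTOC (SE 0.37, adjusted p = 0.0112 from limma).

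A second Igf1 probe, A_52_P536434, whose sequence is given above, read 2156 and 5836 at E14.5 and 990 and 5233 at E15.5, in 2D culture and RTOC. Its values had the same order as those of the first probe. Its log2 ratio averaged 1.92 ± 0.68 (SD over the 2 arrays; limma adjusted p = 0.0119). The third probe, A_52_P306327, was dim, and its signal in 2D culture did not stand well above background on either array. Its intensities were 21.6 and 144 at E14.5 and 24.7 and 109 at E15.5, and by the signal that counts as well above background it was at least 1.18-fold higher in RTOC. It passed the filter on dim probes only through RTOC, so its call (adjusted p = 0.00401 from limma) adds no support to that of the other 2 probes. Bounds of this kind are computed after normexp background correction and loess, where the probe's mean log2 ratio was 0.29 (adjusted p = 0.174).

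Igf2, the fetal ligand and an imprinted gene, differed in the opposite direction. Its brightest probe, A_51_P516826, also printed as 10 spots, read 86359 in 2D culture and 49875 in RTOC at E14.5, and 108526 and 45740 at E15.5. The 2D values were both above the RTOC values. The log2 ratios of -0.79 and -1.25 averaged -1.02 ± 0.32 (SD, n = 2 arrays), a 2.03-fold lower level in RTOC (adjusted p = 0.0408 from limma). The second probe, A_51_P516833, gave log2 ratios of -0.58 and -1.45 and the same mean of -1.02 with an adjusted p of 0.0607 from limma. The call of the brightest probe was lost after normexp correction and loess (mean -0.73, adjusted p = 0.103) and with median centring (mean -0.84, adjusted p = 0.0595).

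**Figure D2:**
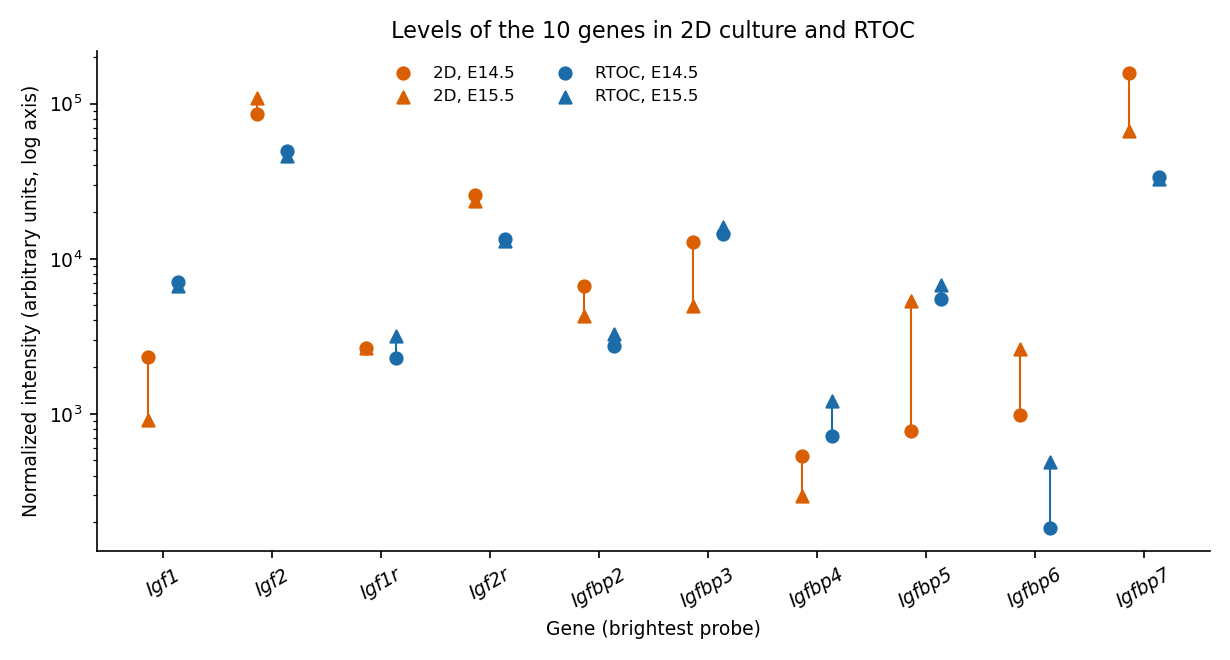
Normalized intensity (log axis) of the brightest probe of each of the 10 genes in 2D culture (orange) and RTOC (blue), with circles for the E14.5 array and triangles for the E15.5 array, and a line joining the same culture on both arrays. For Igf1 and Igfbp7 the RTOC points lie close together and the 2D points apart; heights of different genes are not comparable.

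The signalling receptor gene Igf1r did not pass the test. Of the probes that the files or their accessions name Igf1r, the brighter, A_51_P318365, read 2666 in 2D culture and 2295 in RTOC at E14.5, and 2638 and 3194 at E15.5. The 2 cultures overlapped, and the log2 ratios of -0.22 and 0.28 averaged 0.03 ± 0.35 (SD over the 2 arrays; limma adjusted p = 0.943). The dimmer probe A_52_P668647 read 275 and 700 at E14.5 and 317 and 444 at E15.5, with both RTOC values above both 2D values. Its log2 ratios were 1.35 and 0.48 (mean 0.92, adjusted p = 0.0780 from limma; 1.07 and 0.0298 with median centring). A further pair of probes, listed in the files under older clone names that RefSeq now assigns to Igf1r, were not called. The first, A_51_P474538, was brighter than the probe that stands for the gene, at 5208 and 6252 at E14.5 and 4598 and 8354 at E15.5, with RTOC above 2D culture on each array (log2 ratios 0.26 and 0.86, adjusted p = 0.183 from limma). The other, A_52_P634111, gave a mean log2 ratio of -0.65. The 4 probes therefore did not share a direction, and which part of the gene each one reads was not determined.

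Igf2r, whose product clears Igf2 from the cell surface, was lower in RTOC, as was Igf2. Its probe A_51_P125467 read 25718 in 2D culture and 13453 in RTOC at E14.5, and 23517 and 12983 at E15.5. The ratio was nearly the same on both arrays, -0.93 and -0.86, and the mean of -0.90 ± 0.06 (SD, n = 2 arrays) was a 1.86-fold lower level in RTOC (adjusted p = 0.0478 from limma). With median centring the mean was -0.81 and the adjusted p 0.0652.

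Igfbp6, a binding protein that prefers Igf2 over Igf1, had the lowest mean ratio of the 10 genes, except after normexp correction and loess, where Igfbp7 was lower (-1.50 against -1.34). Its probe A_51_P374571 read 985 in 2D culture and 184 in RTOC at E14.5, and 2600 and 491 at E15.5. The level was higher on the E15.5 array in both cultures, by 1.40 on the log2 scale in 2D culture and by 1.42 in RTOC, so the ratio stayed at -2.42 and -2.41. The mean of -2.41 ± 0.01 (SD, n = 2 arrays) was a 5.33-fold lower level in RTOC (adjusted p = 0.00312 from limma). After normexp correction and loess, which adds an offset and so shrinks ratios of dimmer probes, the mean was -1.34 (adjusted p = 0.0297 from limma). The ratios were then -1.08 at E14.5 and -1.61 at E15.5, so the closeness of the 2 arrays depended on the scaling.

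Igfbp7, a matrix-associated protein with low affinity for the ligands that also binds insulin, was lower in RTOC as well. Its probe A_51_P472292 read 156654 in 2D culture and 33653 in RTOC at E14.5, and 66407 and 32457 at E15.5. The RTOC values were close to each other and below both 2D values. The log2 ratios of -2.22 and -1.03 had a mean of -1.63 ± 0.84 (SD, n = 2 arrays), a 3.09-fold lower level in RTOC (adjusted p = 0.0247 from limma).

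The other 4 binding protein genes did not pass the test. Igfbp2, a carrier abundant in fetal tissues, read 6648 in 2D culture and 2729 in RTOC at E14.5, and 4244 and 3268 at E15.5. Both RTOC values were below both 2D values, and the log2 ratios of -1.28 and -0.38 averaged -0.83 ± 0.64 (SD over the 2 arrays; limma adjusted p = 0.103).

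Igfbp3, the main carrier of the ligands in blood, read 12767 and 14462 at E14.5 and 4987 and 15934 at E15.5 with its brightest probe, A_52_P253179, in 2D culture and RTOC. The RTOC values were alike, and the 2D value on the E15.5 array was the low one. The log2 ratios were 0.18 and 1.68 (0.93 ± 1.06 on average, SD over the 2 arrays; limma adjusted p = 0.140). The dimmer probe A_51_P228472 read 461 and 310 at E14.5 and 167 and 374 at E15.5. Its ratios had opposite signs, -0.57 and 1.16, and its 2 cultures overlapped.

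Igfbp4, a binding protein that mostly restrains the ligands until a protease cuts it, read 532 and 722 at E14.5 and 297 and 1208 at E15.5 with probe A_52_P257502. Both RTOC values were above both 2D values. The log2 ratios were 0.44 and 2.03 with this probe (mean 1.23 ± 1.12 SD, n = 2 arrays; adjusted p = 0.0787 from limma) and 0.51 and 1.73 with probe A_51_P398971 (mean 1.12, adjusted p = 0.0685). With median centring both probes passed, at adjusted p values of 0.0306 and 0.0250.

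Igfbp5, the most conserved binding protein and one that attaches to matrix, read 772 in 2D culture and 5516 in RTOC at E14.5, and 5352 and 6764 at E15.5, with probe A_52_P281702. The single low value was 2D culture on the E14.5 array. The log2 ratios were 2.84 and 0.34 (mean 1.59 ± 1.77 SD, n = 2 arrays; adjusted p = 0.0971 from limma, and 0.0256 with median centring). The other Igfbp5 probe, A_51_P204153, was well above background only in RTOC at E15.5, with intensities of 40.8 and 42.5 at E14.5 and 75.5 and 58.7 at E15.5, and was not tested.

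The order of the 10 genes by mean log2 ratio ran from Igf1 (2.23) through Igfbp5 (1.59), Igfbp4 (1.23), Igfbp3 (0.93), Igf1r (0.03), Igfbp2 (-0.83), Igf2r (-0.90), Igf2 (-1.02) and Igfbp7 (-1.63) to Igfbp6 (-2.41). Each pair of neighbours in this order differed by less than the larger SD between arrays of the pair, except Igf1r and Igfbp2, whose means were 0.86 apart. No difference between genes was tested.

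Between the arrays, the genes differed mostly in 2D culture. The absolute difference in log2 level between E15.5 and E14.5 had a median of 1.04 in 2D culture and 0.20 in RTOC over the 10 genes, and it was larger in 2D culture for 8 of them. Over the 20158 probes well above background in all 4 channels these medians were 0.37 and 0.28, and the difference was larger in 2D culture for 59.1%. In 2D culture the E15.5 level was lower by 1.36 for Igf1, by 1.36 for Igfbp3 and by 1.24 for Igfbp7 on the log2 scale, and higher by 2.79 for Igfbp5. Igf1r and Igfbp6 were the genes whose difference was not larger in 2D culture. The log2 ratio differed between the arrays by more than 1 for 5 of the 10 genes, against 10.8% of those probes. Counted by probe, 15 probes of the 10 genes were among the 20158. The level differed more in 2D culture for 11 of the 15 (73.3%), and the log2 ratio differed by more than 1 for 7 (46.7%). With normexp correction and loess, the same medians came to 0.76 and 0.31 over the 10 genes, against 0.22 and 0.17 over the 20158 probes. The difference was then larger in 2D culture for 7 of the 10 genes, against 58.9%, so Igf1r and Igfbp6 were not the only exceptions there. The log2 ratio differed by more than 1 for 2 of the 10 genes, against 4.71%. With 1 array per stage, none of these differences between stages could be tested.

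**Figure D3:**
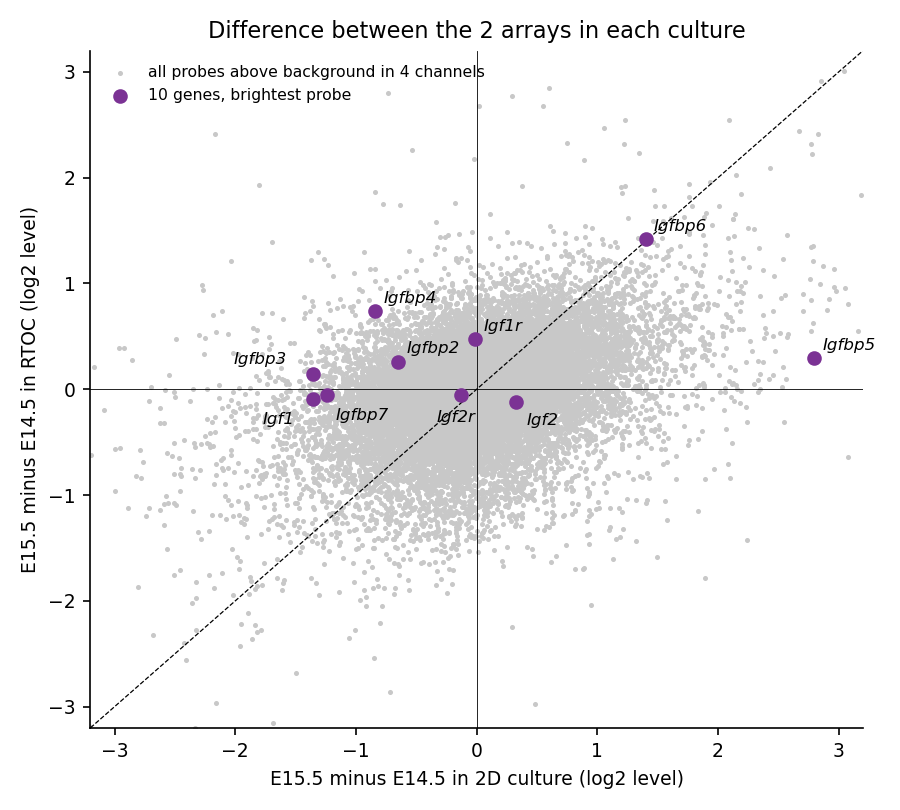
Difference in log2 level between the E15.5 and the E14.5 array in 2D culture (horizontal axis) and in RTOC (vertical axis) for the 10 genes (purple) and for the probes well above background in all 4 channels (grey; 44 of 20158 lie outside the axes). Points on the dashed line have the same ratio on both arrays; Igfbp6 lies on it and Igfbp5 lies 2.50 to its right.

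The genes nearest to Igf1 in their pair of log2 ratios, among 13974 genes well above background in all 4 channels, were Ada (1.69 and 2.92), St3gal6 (1.47 and 2.84) and Mtss2 (1.73 and 2.83). Their distances to Igf1 were 0.12, 0.13 and 0.14. Those nearest to Igfbp6 were Tinagl1 (-2.38 and -2.36), Ero1a (-2.40 and -2.47) and Hsd11b1 (-2.33 and -2.41), at distances of 0.06, 0.07 and 0.10. Likeness was measured over 2 arrays only.

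RNA was taken from whole cultures, in which fewer cells of a type and less RNA per cell cannot be told apart, and marker genes of several cell types moved with the culture. Of 7 epithelial markers 5 were called higher, and the summed intensity of the 7 was 167286 to 424054 in 2D culture and 742845 to 745795 in RTOC. Such sums, here and for the lists that follow, are weighted to the brightest probes and do not measure amounts of cells. In 2D culture at E15.5, for example, Krt8 alone read 378851. The defining markers Foxn1 (log2 ratios 2.68 and 2.63) and Psmb11 (4.05 and 3.76) were well above background in all 4 channels, while Epcam (-0.54 and -0.87) and Krt8, whose signs differed between the arrays, were not called. Of 8 fibroblast and mesenchyme markers 4 were called higher and 3 lower, with sums of 324834 to 428325 and of 271839 to 290771. The higher ones were Pdgfra at 1.90 and 3.78, Dcn at 1.33 and 2.55, Lum at 4.28 and 4.82 and Dpt at 2.04 and 2.69. The lower ones were Col1a1 at -2.46 and -1.87, Col1a2 at -1.63 and -0.82, and Pdgfrb at -1.69 and -0.75. Col3a1 (0.65 and 0.51) was not called. The 6 smooth muscle and pericyte markers, 4 of them called lower and 1 higher, summed to 493456 to 575073 in 2D culture and 41805 to 66772 in RTOC, with Acta2 at -2.72 and -3.28 and Tagln at -4.04 and -4.62 but Rgs5 at 3.79 and 2.71.

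Of 6 endothelial markers 5 were tested and 4 called higher, with sums of 635 to 1542 and of 6416 to 9961. The signal of their defining marker Cdh5 in 2D culture did not stand well above background on either array, and it was at least 5.01-fold higher in RTOC. Cdh5, Pecam1 and Tie1, 3 of the 4 called, passed the filter on dim probes only through RTOC, so their calls (adjusted p = 0.00161 from limma for Cdh5) support nothing further. Emcn, also called higher, gave 3.16 and 4.58, Kdr (0.03 and 2.84) was not called, and Tek (-0.71 and -0.46) was not tested. Of 6 macrophage and haematopoietic markers 3 were called higher, with sums of 8006 to 9305 and of 42787 to 47785. The 3 were Ptprc at 1.97 and 1.80, Adgre1 at 2.80 and 3.22 and Csf1r at 0.91 and 1.28. Not called were Cd68 (0.26 and 0.96), Cd3e (-0.03 and -0.12) and Itgam, which was lower in RTOC on both arrays (-0.30 and -0.92). The part of the cell makeup in the changes of the 10 genes was not tested.

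Beyond the 10 genes, 55 other genes of the pathway were followed in 6 lists by role. The array names 54 of them, 47 were tested, and 6 were called higher and 10 lower, against 16.6% higher and 12.0% lower over all genes tested, which is also the background for each list that follows. Their median log2 ratio was -0.18, against 0.05 over all genes. With median centring the split was 9 higher and 9 lower.

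**Figure D4:**
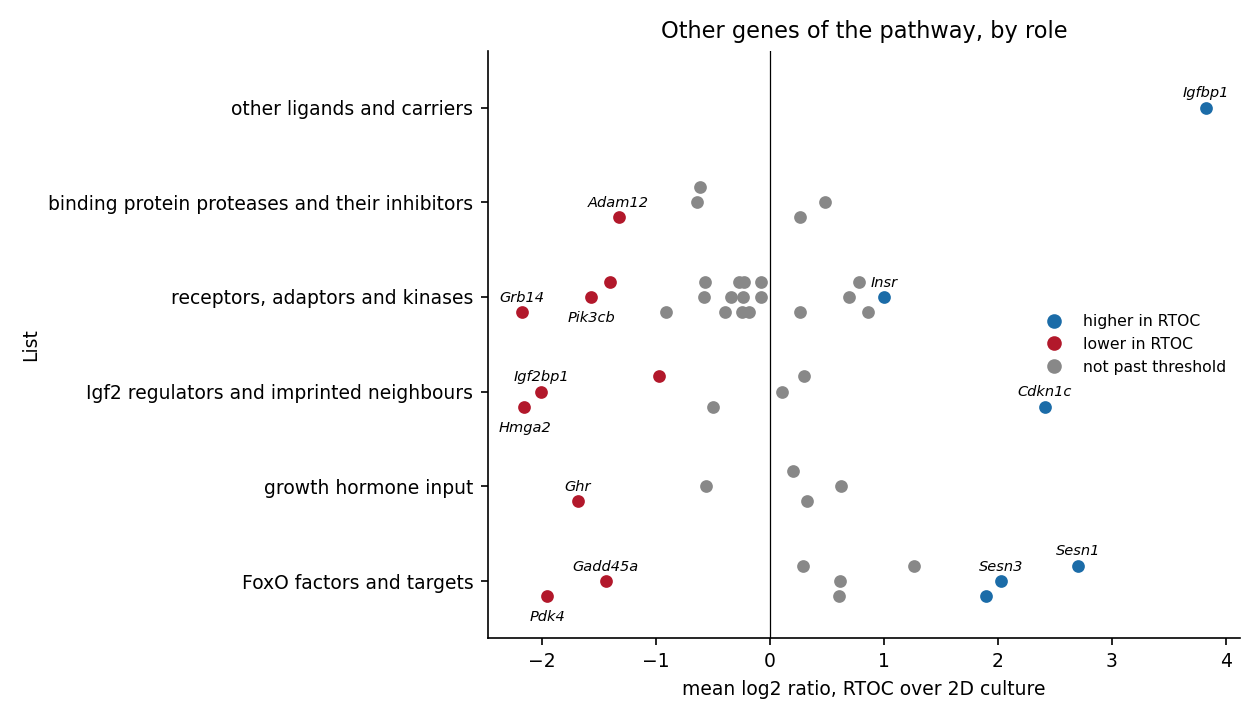
Mean log2 ratio of RTOC over 2D culture for the 47 other pathway genes tested, by list (1 point per gene, brightest probe, offset vertically for legibility); blue genes were called higher and red genes lower in RTOC at an adjusted p under 0.05. Named are up to 2 of the highest and up to 2 of the lowest called genes of each list.

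Of the 5 other ligands and carriers 1 was tested. This was Igfbp1, a binding protein induced by fasting and stress in liver, with intensities of 41.1 and 637 at E14.5 and 23.9 and 309 at E15.5 in 2D culture and RTOC. In 2D culture its signal did not stand well above background on either array, and it was at least 1.92-fold higher in RTOC. It passed the filter on dim probes only through RTOC, so its call (adjusted p = 0.00161 from limma), the 1 of this list, supports nothing further. Igfbp1 and Igfbp3 are neighbouring genes, and so are Igfbp2 and Igfbp5, for which the mean ratios had opposite signs.

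Among the proteases that cut binding proteins and their inhibitors, 0 of 5 tested genes were called higher and 1 lower. The latter was Adam12, a metalloprotease, at -1.63 and -1.02 (mean -1.33, adjusted p = 0.0227 from limma). After normexp correction and loess its mean and adjusted p were -0.23 and 0.249. At E14.5 its signal in RTOC did not stand well above background, so on that array it passed the filter only through 2D culture. Its other probe, A_52_P290457, was not tested. Pappa, the protease that cuts Igfbp4, gave a mean of -0.63 (adjusted p = 0.112) and was not called. It stands outside the naming rule.

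Among 20 tested receptors, adaptors and kinases, 1 was called higher and 3 lower. Insr, the insulin receptor, read 226 and 454 at E14.5 and 313 and 622 at E15.5, so that its log2 ratio averaged 1.001 ± 0.012 (SD over the 2 arrays; limma adjusted p = 0.0356, and 0.0693 after normexp correction and loess). This probe, A_52_P494514, is listed under a clone name that RefSeq assigns to Insr, and the probe that the files name Insr, A_52_P6490, was not well above background in any channel. Lower in RTOC was Grb14, an adaptor that inhibits the insulin receptor (mean -2.17, adjusted p = 0.00769 from limma). So were Pik3cb, a catalytic subunit of phosphoinositide 3-kinase (-1.56, 0.0109), and Irs1, the docking protein of both receptors (-1.40, 0.0152). Irs1 stands outside the naming rule and was added after its value was seen.

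Among 7 regulators of Igf2 and imprinted neighbours, 1 was called higher and 3 lower. Cdkn1c, an imprinted inhibitor of the cell cycle, read 2313 and 8856 at E14.5 and 846 and 6253 at E15.5, so that its log2 ratio averaged 2.41 ± 0.67 (SD over the 2 arrays; limma adjusted p = 0.00600). Hmga2, a chromatin protein of fetal tissues, was called lower (mean -2.15, adjusted p = 0.0177 from limma, and 0.0565 after normexp correction and loess). Also lower were the RNA-binding proteins Igf2bp1 (-2.01, 0.00532) and Igf2bp3 (-0.97, 0.0460), which bind Igf2 mRNA. Igf2bp3 stands outside the naming rule. H19, the imprinted RNA that lies beside Igf2 with no protein-coding gene between them, was not called. Its brighter probe, A_51_P142196, gave 0.80 and -0.20.

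In the growth hormone list, which leads to Igf1 transcription in liver, 1 of 5 tested genes was called. The growth hormone receptor gene Ghr was lower in RTOC. It read 10344 in 2D culture and 2483 in RTOC at E14.5, and 5713 and 2307 at E15.5. Its log2 ratio averaged -1.68 ± 0.53 (SD over the 2 arrays, limma adjusted p = 0.0135). Of its 4 other probes 2 were called lower and 2 were not called (means -0.54 and -0.64).

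Among 9 tested FoxO factors and their targets, genes that are active when insulin and growth factor signalling is low, 3 were called higher and 2 lower. Sesn1, a stress-induced regulator of mTOR signalling, gave 2.97 and 2.44 (mean 2.71, adjusted p = 0.00299 from limma). Sesn3 of the same family gave 3.09 and 0.98 (mean 2.03, adjusted p = 0.0370; 0.0916 after normexp correction and loess), with its 2 other probes not called, and the cell cycle inhibitor gene Cdkn1b, outside the naming rule, had a mean of 1.89 (adjusted p = 0.00609). Pdk4, a kinase that restrains glucose oxidation, gave -2.81 and -1.09 (mean -1.95, adjusted p = 0.0277; 0.114 after normexp correction and loess), and Gadd45a, a stress response gene, gave -1.49 and -1.40 (mean -1.44, adjusted p = 0.0130).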

How the data were processed

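RNA of RTOC (Cy5) and 2D culture (Cy3) was compared on 2 two-colour Agilent arrays. The authors processed the scans with Feature Extraction (version 9.1.3.1 in the files, 11.5.1.1 in the submitters' notes). The deposited files give processed signals as background-subtracted, dye-normalized intensity values and a log10 ratio, and the deposited series values are log10 ratios of the same signals. The methods state quantile normalization among arrays.

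Here control spots and outlier spots (5 and 1) were left out, quantile normalization was applied to the 4 channels of processed intensity, and the log2 ratio of Cy5 to Cy3 was averaged over a probe's spots. Tested were probes with a signal well above background in 1 or both channels of both arrays. Ratios were tested against 0 with limma 3.58.1 (R 4.3.3; lmFit with an intercept, eBayes, two-sided, Benjamini-Hochberg, threshold 0.05). Only 1 residual degree of freedom is left, so the p-values lean on the spread shared over probes. The ratio is taken within an array, so each array is its own block; the pairing comes from the joint hybridization. The series' own replicate numbers are the 2 arrays. Per channel, 53.1% to 60.9% of probes were well above background, and the number of arrays limits the precision.

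The members and lists were chosen with earlier results of these data known. Named were every member and probe, up to 2 of the highest and up to 2 of the lowest called genes of each list, and the 3 genes nearest to the highest and the lowest member. Of the cell type markers the defining ones and some of the others were named. Probes were named through a table of GRCm38.p6: 22951 by accession, 6659 by symbol and 3109 by an older symbol, while 8455 kept the files' name. Alternatives were normexp (offset 50) with loess, median centring, the deposited log ratio, the series values (added after the files were seen), no or a stricter filter on dim probes, keeping the outlier spots, leaving out either array, a trended and robust eBayes, a fit without the replicate block, a t-test (the kind the methods name, though not for the arrays), and the median of a gene's probes. The limma fit and the adjustment were tested on simulated log ratios with known changes, and the steps before them were not.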

Additional observations from a re-analysis of the deposited data

Results flagged for a closer look

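For 2 probes of the 10 genes the log2 ratio of RTOC over 2D culture had opposite signs on the arrays. The Igf1r probe A_51_P318365 was lower in RTOC at E14.5 (-0.22) and higher at E15.5 (0.28), a difference of 0.49. The Igfbp3 probe A_51_P228472 was lower on the E14.5 array (-0.57) and higher on the E15.5 array (1.16), a difference of 1.73. Opposite signs occurred for 2 of the 16 tested probes, and for 19.9% of all probes tested. Both probes of H19, the imprinted neighbour of Igf2, went the opposite way. Probe A_51_P142196 gave 0.80 at E14.5 and -0.20 at E15.5 (E15.5 minus E14.5, -1.001), and probe A_52_P571350 gave 0.58 and -0.76 (-1.35). With 1 array per stage these differences were not tested.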

How the results depend on the processing

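The direction of each of the 16 tested probes' mean ratio was the same under every alternative with both arrays. Igf1, Igf2, Igf2r, Igfbp6 and Igfbp7 made up the 5 called genes, and the count was 5 with the deposited log ratio, the series values, eBayes with trend and robust fitting, outlier spots kept, the stricter filter, the gene medians and median centring (there 3 higher and 2 lower), and 4 after normexp and loess, where Igf2 was lost. The calls depended on the filter on dim probes, also for bright probes. With no such filter, limma called 0 of the 10 genes, 0 of the other pathway genes and 0 of all 41168 probes (10666 at an unadjusted p under 0.05). The Igf1 probe A_51_P147942 then had the same mean ratio with an adjusted p of 0.180 from limma. A t-test on the 2 ratios of each probe called 2 of the 10 genes, 7 other pathway genes and 3539 probes without adjustment. After Benjamini-Hochberg adjustment it called 0, 0 and 0. The methods name Student's t-test, but not for the arrays. With no replicate block, so that the pairing of the cultures on an array was ignored, 1 of the 10 genes (Igf1), 10 other pathway genes and 4033 probes were called, against 5, 16 and 6820. Normexp and loess gave 3716 probes. The causes were not tested. Leaving out the filter changes both the number of probes tested and the spread shared over probes, and these were not separated. The median over the 10 genes of -0.40 ranged from -0.50 to -0.051 when either array was left out, which leaves no residual degree of freedom and hence no test.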
